A study of Homo sapiens with 12 samples.

Results

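The long noncoding RNA genes followed here, 7 in number, were measured in SH-SY5Y cells exposed to hydrogen peroxide (H2O2): MALAT1, NEAT1, KCNQ1OT1, MEG3, MIAT, TUG1 and OIP5-AS1. They were chosen by name, as long noncoding RNAs known for high abundance or retention in the nucleus. All 7 are among the 55765 gene symbols of the count files, and 6 of them (all but MEG3) passed the filter on low counts that kept 24407 genes over the 12 libraries.

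SH-SY5Y is a human neuroblastoma line subcloned from SK-N-SH that takes on neuron-like features with all-trans retinoic acid (ATRA), and all 12 samples received 10 μM ATRA for 7 days. In the co-treatment experiment, 3 samples had H2O2 during those 7 days and 3 controls had ATRA alone. In the pre-treatment experiment, 3 samples had H2O2 for 72 h before ATRA and 3 controls had none. The concentration of H2O2 is given as 10 in different units by the labels (millimolar) and the methods (micromolar), and all samples are of 1 cell line with no genetic change.

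MALAT1 and NEAT1 are neighbouring genes whose transcripts stay in the nucleus, MALAT1 in nuclear speckles, which hold splicing factors, and NEAT1 as the scaffold of paraspeckles. KCNQ1OT1 and MEG3 are transcribed from imprinted regions, where only the copy from one parent is active, and KCNQ1OT1 silences neighbouring genes in cis. MIAT is a nuclear RNA of neurons that binds splicing factors, TUG1 is a broadly expressed RNA with roles in chromatin and nerve tissue, and OIP5-AS1 (Cyrano) drives the decay of the microRNA miR-7.

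The sequences shown first are those by which OIP5-AS1, MIAT, MALAT1 and NEAT1 are known to act or be processed. The lines below give mature miR-7 from RefSeq with its seed (bases 2 to 8) in capitals, then the site in an OIP5-AS1 exon (hg19, chr15:41592772-41592797, plus strand) with the bases complementary to the seed in capitals. It is the 1 of 3 seed matches in the OIP5-AS1 exons with the longest run of pairing upstream of the seed, 14 bases.
hsa-miR-7-5p: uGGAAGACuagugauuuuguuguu
OIP5-AS1 site: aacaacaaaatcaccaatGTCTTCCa

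The next line is an exonic stretch of MIAT (hg19, chr22:27068145-27068264, plus strand) with the 7-base motif TACTAAC, the sequence of a consensus branch point, in capitals. The sense strand of the MIAT exons held 7 copies, or 0.441 per kb, whereas the other 6 genes held between 0 and 0.0447 per kb.
MIAT repeat: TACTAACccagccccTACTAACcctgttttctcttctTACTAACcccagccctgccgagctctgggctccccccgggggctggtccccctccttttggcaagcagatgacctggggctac

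MALAT1 and the long isoform of NEAT1 are known to end without a poly(A) tail, after cleavage by RNase P, in a structure of U-rich stretches and a genomically encoded A-rich tract. The stretches around these tracts (MALAT1, hg19 chr11:65273489-65273589, NEAT1, chr11:65212891-65213011, both plus strand and exonic) are shown with a T-rich run and the A run in capitals. The A run is of 13 bases in MALAT1 and of 5 in NEAT1. The short isoform of NEAT1 has a poly(A) tail, and the counts per gene do not separate the isoforms.
MALAT1 3′ tract: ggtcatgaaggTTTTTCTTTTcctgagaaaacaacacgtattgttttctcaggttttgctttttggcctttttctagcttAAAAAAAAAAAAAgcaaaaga
NEAT1 3′ tract: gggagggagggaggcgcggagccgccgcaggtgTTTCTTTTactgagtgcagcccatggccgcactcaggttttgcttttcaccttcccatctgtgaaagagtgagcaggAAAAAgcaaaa

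The libraries were made from total RNA after removal of ribosomal RNA, so transcripts without a poly(A) tail were retained. They held between 27576276 and 98287391 reads on genes. The controls of the pre-treatment experiment differed from each other in composition. Reads outside annotated genes came to 0.800 and 0.830 per read on a gene in pre-treatment controls 1 and 2 and to 0.200 in control 3, and lay between 0.263 and 0.462 in the other 9 libraries. Small structured RNAs took 1.63% and 2.91% of gene reads in controls 1 and 2, 17.6% in control 3 and 5.08% to 15.1% in the other 9 libraries. Counts of control 3 differed from those of controls 1 and 2 with a chi-square per degree of freedom of 545 and 499, against 24.8 to 147 for the other pairs of replicates. Pre-treatment results are therefore given with all 6 libraries and with 5, leaving out control 3. Control 3 was the one left out because earlier results of these data set it apart from the other controls. In reads outside genes and in small RNAs, controls 1 and 2 also lay outside the range of the other 9 libraries. The 5-library comparison thus rests on 2 controls that themselves stand apart. Of 10 markers of noradrenergic neuroblastoma cells, 9 had more than 10 counts in every library, while the tyrosine hydroxylase gene TH reached at most 0.258 CPM.

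MALAT1 was by far the most abundant of the 7 RNAs and ranked 10 of 24407 genes by mean CPM (counts relative to library size, scaled by TMM over the 12 libraries). Per kilobase of merged exon, the median level over the 12 libraries was 295.5 CPM for MALAT1, 24.0 for TUG1, 10.9 for MIAT, 9.64 for NEAT1, 8.64 for OIP5-AS1 and 0.504 for KCNQ1OT1. Among the RNAs that passed the filter, the range of MALAT1 (119 to 430.2) lay above and that of KCNQ1OT1 (0.192 to 1.48) below those of all others. NEAT1 (3.54 to 22.7) overlapped TUG1 (20.2 to 39.3), MIAT (5.05 to 13.4) and OIP5-AS1 (7.75 to 9.82), and the last 2 overlapped each other, so these neighbours in the order are not separated by their spread. Together the 7 RNAs took between 0.157% and 0.632% of the gene reads of a library.

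The RNAs differed in how much they varied. The SD of log2 CPM over the 12 libraries was 0.98 for KCNQ1OT1, 0.74 for NEAT1, 0.54 for MALAT1, 0.44 for MIAT, 0.32 for TUG1 and 0.11 for OIP5-AS1, beside a median of 0.41 over all genes kept. Only 1.57% of genes had a smaller SD than OIP5-AS1, and 89.6% had a smaller SD than KCNQ1OT1.

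**Figure D1:**
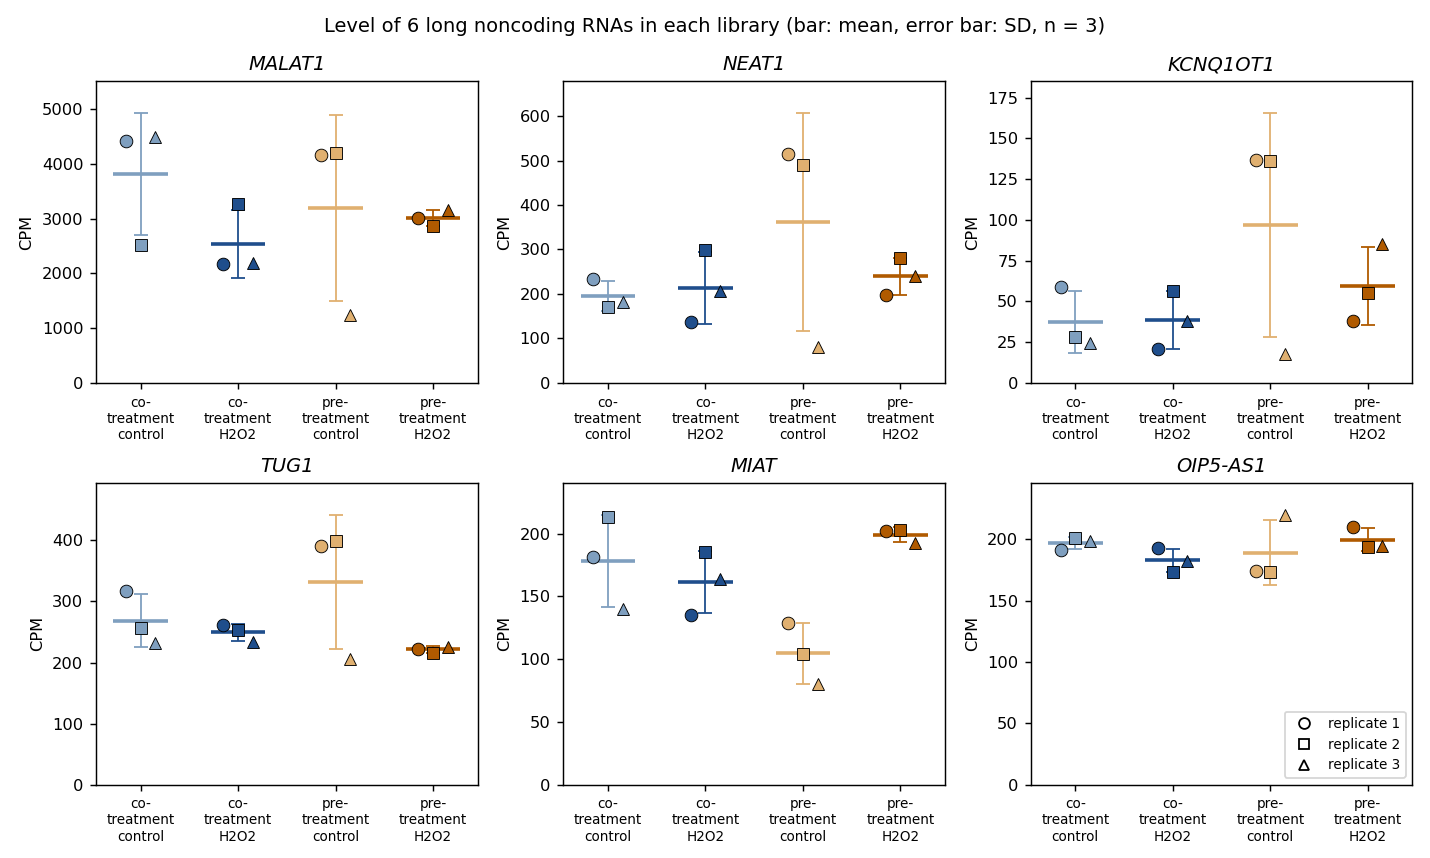
CPM (linear axis from 0) of 6 long noncoding RNAs in each of the 12 libraries by group, with a symbol per replicate, the mean as a horizontal bar and the SD as error bars. Pre-treatment control 3 (triangle) lies far below controls 1 and 2 for MALAT1, NEAT1, KCNQ1OT1 and TUG1, while for MIAT all 3 controls, at 80.2 to 129 CPM, lie below all treated samples, at 192 to 203 CPM.

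No member was called in the co-treatment experiment, at an FDR below 0.05 in edgeR's quasi-likelihood test, where 0.598% of the 22089 genes tested were called. The groups overlapped for all 6 RNAs tested, while they did not overlap for 14% of all genes. An unadjusted p below 0.05 was reached by 1 member, MALAT1, and by 1801 of the 22089 genes. The exact test of edgeR, DESeq2 and limma-voom also called 0 members.

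The pre-treatment experiment gave no call over 6 libraries and 5 calls over 5 libraries. Over all 6, 0.0242% of 24743 genes were called and 0 of the 6 members. An unadjusted edgeR p below 0.05 was reached by 1 member, MIAT, and by 2776 of the 24743 genes. The exact test and DESeq2 called 1 member each and limma-voom 0. Without control 3, 26.1% of 26350 genes were called, 13.2% higher and 12.8% lower in treated samples, and the members called were 1 higher (MIAT) and 4 lower (TUG1, NEAT1, KCNQ1OT1 and MALAT1). The groups did not overlap for any of the 6 members over these 5 libraries, as for 57.7% of all genes, and over 6 libraries they did not overlap for 1 member (MIAT, higher in treated), as for 16.4% of all genes, 8.45% with the treated group higher.

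**Figure D2:**
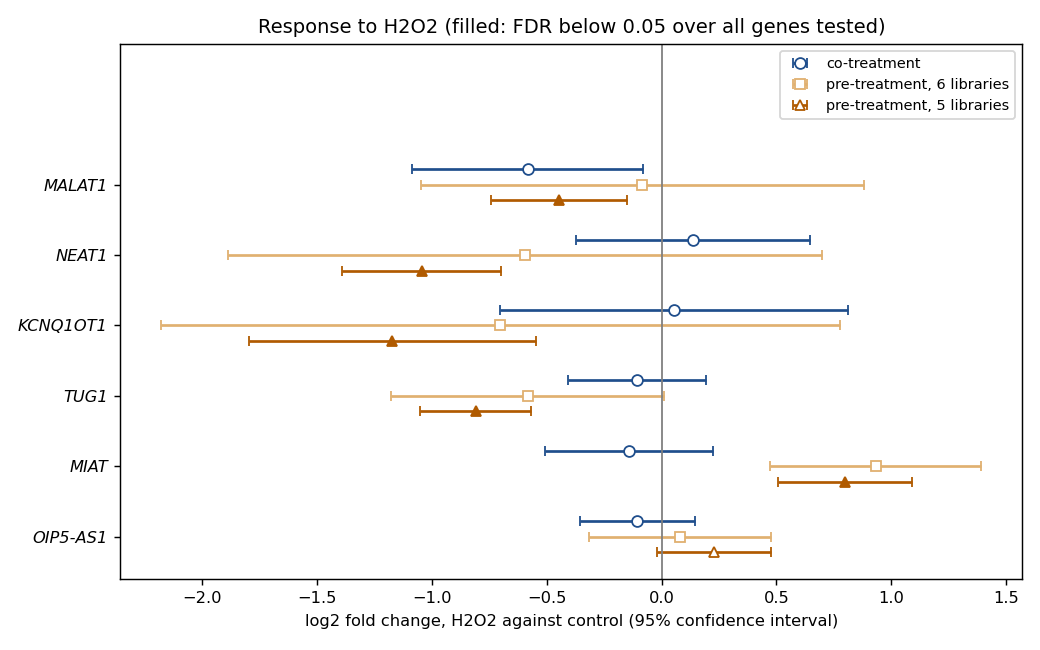
Log2 fold change of H2O2-treated against control samples with its 95% confidence interval for 6 RNAs, in the co-treatment experiment and in the pre-treatment experiment with 6 and with 5 libraries. Filled symbols mark an FDR below 0.05 over all genes tested, reached by 5 RNAs in the 5-library comparison alone, and the 6-library intervals of MALAT1, NEAT1 and KCNQ1OT1 are the widest.

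MALAT1 (ENSG00000251562, hg19 chr11:65265111-65275544, plus strand, 1 merged exon) stood at 4412, 2524 and 4489 CPM in the co-treatment controls and at 2177, 3259 and 2193 CPM with H2O2. Treated samples 1 and 3 lay below all controls and treated sample 2 lay between them. The log2 fold change was -0.58 ± 0.23 (SE, n = 3 and 3), with an unadjusted edgeR p of 0.0267 and an FDR of 0.501. In the pre-treatment experiment the controls stood at 4167, 4194 and 1242 CPM and the treated samples at 3006, 2873 and 3159 CPM. The treated samples lay within the range of the controls. Over 6 libraries the log2 fold change was -0.08 ± 0.42 (edgeR FDR 0.949), and without control 3 MALAT1 fell by 0.44 ± 0.13 (edgeR FDR 0.0376, n = 2 and 3).

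Proteins of the nuclear speckle, where MALAT1 resides, moved in both directions. None of the 14 tested was called in the co-treatment comparison or over the 6 pre-treatment libraries, and over 5 libraries 7 were higher and 3 lower, where 13.2% and 12.8% of all genes were, with a median log2 fold change of 0.51 beside 0.01 for all genes. The scaffold proteins SON (log2 fold change -1.33 ± 0.12) and SRRM2 (-2.57 ± 0.29) and the splicing coactivator SRRM1 (-0.99 ± 0.15) were the 3 lower, and the splicing factor LUC7L3 (1.28 ± 0.15) was the higher one with the smallest FDR. For the 3 lower genes and several of the higher ones this turns on which controls are used. SRRM2 averaged 595 CPM in controls 1 and 2, 62.9 CPM in control 3 and 98.8 ± 38.4 CPM in the treated samples (SD, n = 3), SON 616, 182 and 241 ± 17.1 CPM, and SRRM1 66.0, 26.8 and 32.6 ± 5.50 CPM. LUC7L3 was at 173 CPM in controls 1 and 2, at 169 CPM in control 3 and at 413 ± 28.5 CPM in the treated samples. In the same order, RBM25 was at 112, 107 and 172 CPM and PNN at 28.1, 33.6 and 46.5 CPM. For the other higher genes, control 3 was nearer the treated mean or above it. SRSF3 was at 227, 421 and 332 CPM and SRSF1 at 219, 321 and 336 CPM. SRSF2 was at 127, 189 and 199 CPM and SRSF7 at 116, 192 and 213 CPM.

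NEAT1 (ENSG00000245532, chr11:65190245-65213011, plus strand) was at 233, 170 and 183 CPM in the co-treatment controls and at 136, 299 and 207 CPM in the treated samples. The treated samples held both the lowest and the highest value, and the log2 fold change was 0.14 ± 0.23 (edgeR FDR 0.940). In the pre-treatment experiment controls 1, 2 and 3 were at 516, 490 and 80.5 CPM, and the treated samples at 197, 282 and 240 CPM. Controls 1 and 2 lay above, and control 3 below, every treated sample. The log2 fold change over 6 libraries was -0.59 ± 0.56 (edgeR FDR 0.710), and without control 3 NEAT1 fell by 1.04 ± 0.15 (edgeR FDR 0.00335).

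Paraspeckle proteins, which assemble on NEAT1, were split evenly among those called. Of 19 tested, none was called in the co-treatment comparison or over 6 pre-treatment libraries, and over 5 libraries 5 were higher and 5 lower, where 13.2% and 12.8% of all genes were (median log2 fold change 0.11, all genes 0.01). Those with the smallest FDR were lower, namely AHDC1 (-2.40 ± 0.31), the chromatin remodeller SMARCA4 (-1.38 ± 0.20), FIGN (-1.63 ± 0.24) and the RNA-binding protein TAF15 (-1.04 ± 0.15). In controls 1 and 2, control 3 and the treated samples, AHDC1 was at 39.3, 7.14 and 7.30 CPM and SMARCA4 at 326, 147 and 123 CPM (means for groups). FIGN was at 29.7, 6.51 and 9.38 CPM and TAF15 at 62.7, 25.1 and 29.9 CPM in the same order. NONO, a core paraspeckle protein, was higher by 0.51 ± 0.13. It averaged 474 CPM in controls 1 and 2 and 663 CPM in the treated samples, but was at 821 CPM in control 3. Other paraspeckle proteins were not called, with 0.01 ± 0.14 for SFPQ, 0.35 ± 0.12 for PSPC1, 0.33 ± 0.12 for HNRNPK and -0.26 ± 0.15 for RBM14. The nucleases and cofactors that process or degrade nuclear RNA (RNase P, RNase Z and the nuclear exosome) gave calls in 1 direction. Of 28 tested, 15 were higher and 0 lower over 5 libraries, where 13.2% and 12.8% of all genes were, with a median of 0.55, and examples are the RNase P subunit POP5 (0.93 ± 0.14) and the exosome subunit EXOSC4 (0.89 ± 0.14). Both examples turn on which controls are used. POP5 averaged 17.0 CPM in controls 1 and 2, 31.8 ± 1.52 CPM in the treated samples and was at 31.0 CPM in control 3. EXOSC4 averaged 13.5 and 24.4 ± 1.20 CPM and was at 34.0 CPM in control 3, above the treated mean. In the co-treatment comparison and over 6 pre-treatment libraries 0 of the 28 were called, with medians of 0.09 and 0.26.

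KCNQ1OT1 (ENSG00000269821, chr11:2618538-2721233, minus strand) lies inside KCNQ1 on the opposite strand. The kit preserved strand, but the strand setting of the counting is not given in the sources used here, so reads of the pair may not be fully separated. Its level was 59.1, 28.2 and 24.6 CPM in the co-treatment controls and 21.1, 56.5 and 38.3 CPM with H2O2, with overlapping groups and a log2 fold change of 0.05 ± 0.35 (edgeR FDR 0.991). Pre-treatment controls were at 137, 136 and 17.8 CPM and treated samples at 37.8, 55.1 and 85.5 CPM. Control 3 was the lowest of the 12 libraries and controls 1 and 2 the highest. The log2 fold change was -0.70 ± 0.64 over 6 libraries (edgeR FDR 0.701), and without control 3 KCNQ1OT1 fell by 1.17 ± 0.27 (edgeR FDR 0.0168).

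Genes of the imprinted region around KCNQ1OT1 did not move together. Over 5 libraries, 1 of 11 tested was higher (TSSC4, 0.58 ± 0.12) and 2 were lower, the growth factor gene IGF2 and the noncoding RNA gene H19 (-2.53 ± 0.58), a share near the 26.1% of all genes called. Over 6 libraries 0 of 9 were called (edgeR FDR 0.320 for IGF2 and for H19, 0.926 for TSSC4). IGF2 was at 1.92, 74.8 and 4.35 CPM in controls 1, 2 and 3 and at 0.146, 0.252 and 0.455 CPM in the treated samples. H19 was at 133, 842 and 305 CPM in the controls and at 65.9, 98.8 and 83.2 CPM in the treated samples. For both genes all controls lay above all treated samples, and control 2 lay far above controls 1 and 3. KCNQ1 itself gave -0.55 ± 0.20 over 5 libraries (edgeR FDR 0.0703) and CDKN1C, a cell cycle inhibitor silenced from this region, 0.07 ± 0.20. None of the 9 genes tested in the co-treatment comparison was called.

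MEG3 (ENSG00000214548, chr14:101245747-101327368, plus strand) was close to undetected. It had 0 counts in 9 libraries, 1 count in co-treatment control 1, 5 in pre-treatment treated sample 1 and 1 in treated sample 3. In the 9 libraries a count of 0 allows a level of up to 0.0394 to 0.109 CPM, depending on the library, by counting error alone, and no test was made. Its imprinted neighbour DLK1, which is active on the other parental copy, was detected, with a mean of 7.65 ± 2.94 CPM in co-treatment controls and 10.1 ± 7.44 CPM with H2O2. In the pre-treatment experiment DLK1 was at 1.26, 44.7 and 19.4 CPM in the controls and at 0.136, 0.577 and 3.08 CPM in the treated samples, which overlap, and its log2 fold change over 5 libraries was -4.16 ± 1.33 (edgeR FDR 0.0506).

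MIAT (ENSG00000225783, chr22:27042375-27072438, plus strand) was the member whose pre-treatment groups did not overlap with or without control 3. Controls stood at 129, 104 and 80.2 CPM and treated samples at 202, 203 and 192 CPM, with no overlap. The log2 fold change was 0.93 ± 0.20 over 6 libraries (unadjusted edgeR p 0.0015, FDR 0.320), and MIAT rose by 0.80 ± 0.13 over 5 (edgeR FDR 0.00452). Over 6 libraries 0.461% of genes had a smaller p than MIAT. In the co-treatment experiment controls were at 182, 213 and 140 CPM and treated samples at 136, 185 and 164 CPM, which overlap, with a log2 fold change of -0.14 ± 0.17 (edgeR FDR 0.905).

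Of 4 RNA-binding proteins known to bind MIAT, none was called in the co-treatment comparison or over 6 pre-treatment libraries. Over 5 libraries 1 was called, as were 26.1% of all genes. It was SF1, which binds the branch point, and it was lower (-1.08 ± 0.20, edgeR FDR 0.00725). SF1 averaged 143 CPM in controls 1 and 2, was at 70.3 CPM in control 3 and averaged 66.7 CPM in the treated samples. CELF3 gave -0.46 ± 0.15 (edgeR FDR 0.0563), QKI -0.24 ± 0.16 and CELF4 0.23 ± 0.18, none of them called.

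TUG1 (ENSG00000253352, chr22:31365231-31375381, plus strand, typed as protein coding in the annotation used here) was steady in the treated samples of the pre-treatment experiment, at 223, 215 and 226 CPM. Controls 1, 2 and 3 were at 391, 399 and 205 CPM, so that controls 1 and 2 lay above, and control 3 just below, the treated samples. The log2 fold change was -0.58 ± 0.26 over 6 libraries (unadjusted edgeR p 0.0540, FDR 0.453), and without control 3 TUG1 fell by 0.81 ± 0.11 (edgeR FDR 0.00230). In the co-treatment experiment, with controls at 317, 257 and 232 CPM and treated samples at 261, 253 and 234 CPM, it was -0.11 ± 0.14 (edgeR FDR 0.917). MORC2, whose gene lies 471 bases away on the opposite strand, gave -0.77 ± 0.14 over 5 pre-treatment libraries (edgeR FDR 0.00803) and -0.58 ± 0.24 over 6 (edgeR FDR 0.429).

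OIP5-AS1 (ENSG00000247556, chr15:41576156-41614590, plus strand), which overlaps OIP5 and NUSAP1, was the steadiest. Co-treatment controls were at 191, 201 and 199 CPM and treated samples at 193, 174 and 183 CPM, a log2 fold change of -0.11 ± 0.11 (edgeR FDR 0.893). Pre-treatment controls were at 174, 173 and 220 CPM and treated samples at 210, 194 and 195 CPM. The log2 fold change was 0.08 ± 0.17 over 6 libraries (edgeR FDR 0.873) and 0.23 ± 0.11 over 5 (edgeR FDR 0.148). The highest and the lowest of the 12 libraries differed 1.27-fold.

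Of 3 other genes of the miR-7 circuit, none was called in the co-treatment comparison or over 6 pre-treatment libraries (edgeR FDR 0.320 to 0.530). Over 5 libraries 1 was higher and 1 lower, where 13.2% and 12.8% of all genes were. CDR1, at the locus whose antisense circular RNA binds miR-7, was at 26.9, 44.7 and 2.24 CPM in pre-treatment controls 1, 2 and 3 and at 2.69 ± 0.265 CPM in the treated samples. Its log2 fold change over 5 libraries was -3.70 ± 0.23 (edgeR FDR 0.000383), and the counts do not say which strand the reads came from. MIR7-3HG, a host gene of miR-7, was higher by 1.33 ± 0.37 (edgeR FDR 0.0319), at no more than 1.52 CPM in any library, and ZSWIM8, a ubiquitin ligase component of the decay pathway, gave -0.38 ± 0.14 (edgeR FDR 0.0738).

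**Figure D3:**
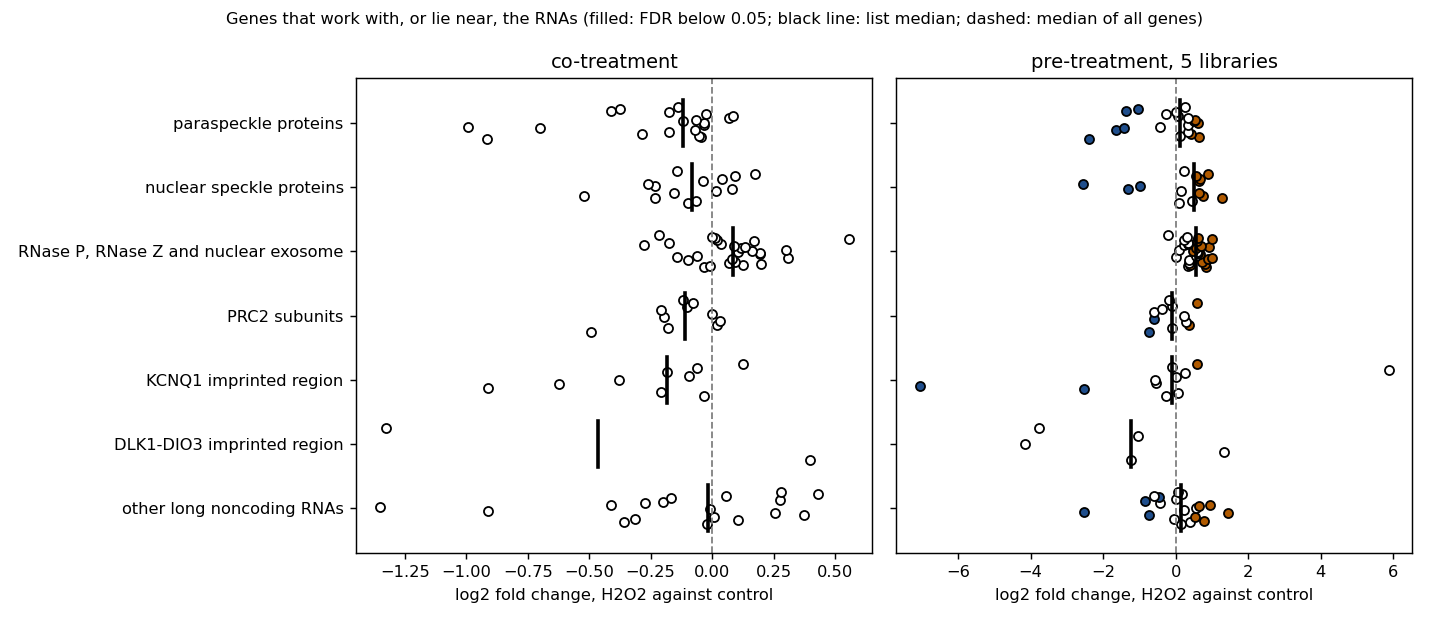
Log2 fold change of each gene in 7 lists in the co-treatment comparison and in the 5-library pre-treatment comparison (the horizontal scales differ). Filled points passed an FDR of 0.05, blue lower and orange higher, black lines mark list medians and dashed lines the median of all genes. No point is filled on the left, and on the right 15 of the 28 nuclease and exosome genes are filled, all higher.

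Whether the response differed between the experiments was tested as an interaction of treatment and experiment. Over 12 libraries 0 of 6 members were called, as were 0.0287% of 24407 genes, and DESeq2 and limma-voom called 0 members. An unadjusted edgeR p below 0.05 was reached by 1 member (MIAT, difference of the log2 fold changes 1.05 ± 0.28, edgeR FDR 0.398) and by 2183 of the 24407 genes. Without pre-treatment control 3, 8.02% of 25668 genes were called, 3.32% with a positive and 4.7% with a negative difference, and 3 members, MIAT with a more positive response in the pre-treatment experiment (0.89 ± 0.23, edgeR FDR 0.0355) and NEAT1 (-1.23 ± 0.33, edgeR FDR 0.0386) and TUG1 (-0.76 ± 0.18, edgeR FDR 0.0245) with a more negative one. KCNQ1OT1 gave -1.28 ± 0.54 (edgeR FDR 0.138). For the 3 members called, the remaining controls differed more in mean level between the experiments than the treated samples did.

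The levels of NEAT1 and KCNQ1OT1 followed the reads outside annotated genes. As pre-treatment controls 1 and 2 lay apart from the rest in that measure, it was compared with log2 CPM over the other 10 libraries and over the 6 co-treatment libraries, for 6 RNAs each. For NEAT1, Pearson's r was 0.944 over 10 libraries (permutation p 7e-05, adjusted 0.00021, Spearman's rho 0.939) and 0.972 over 6 (exact permutation p 0.00278, adjusted 0.0125, rho 0.943). For KCNQ1OT1, r was 0.960 over 10 libraries (permutation p 4e-05, adjusted 0.00021, rho 0.952) and 0.954 over 6 (exact permutation p 0.00417, adjusted 0.0125, rho 0.943). Leaving out the 2 libraries farthest from the median kept r between 0.960 and 0.967 in these 4 cases. Both measures are divided by the gene reads of the same library and the groups are pooled. The share of all genes that follow the reads outside genes as closely was not computed, so the relation is not shown to be particular to these 2 RNAs.

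The other RNAs followed this measure less closely. For MIAT r was 0.792 over 10 libraries (permutation p 0.0067, adjusted 0.0134, rho 0.612), 0.538 without the 2 farthest, and 0.456 over 6 (exact permutation p 0.338, adjusted 0.507). For MALAT1 r over 10 libraries was 0.629 (permutation p 0.0489, adjusted 0.0587, rho 0.539), and 0.244 without the 2 farthest. For OIP5-AS1 it was -0.642 (permutation p 0.0463, adjusted 0.0587, rho -0.455), and -0.827 over 6 (exact permutation p 0.0431, adjusted 0.0862). For TUG1 it was 0.193 over 10 (permutation p 0.584, rho 0.006).

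**Figure D4:**
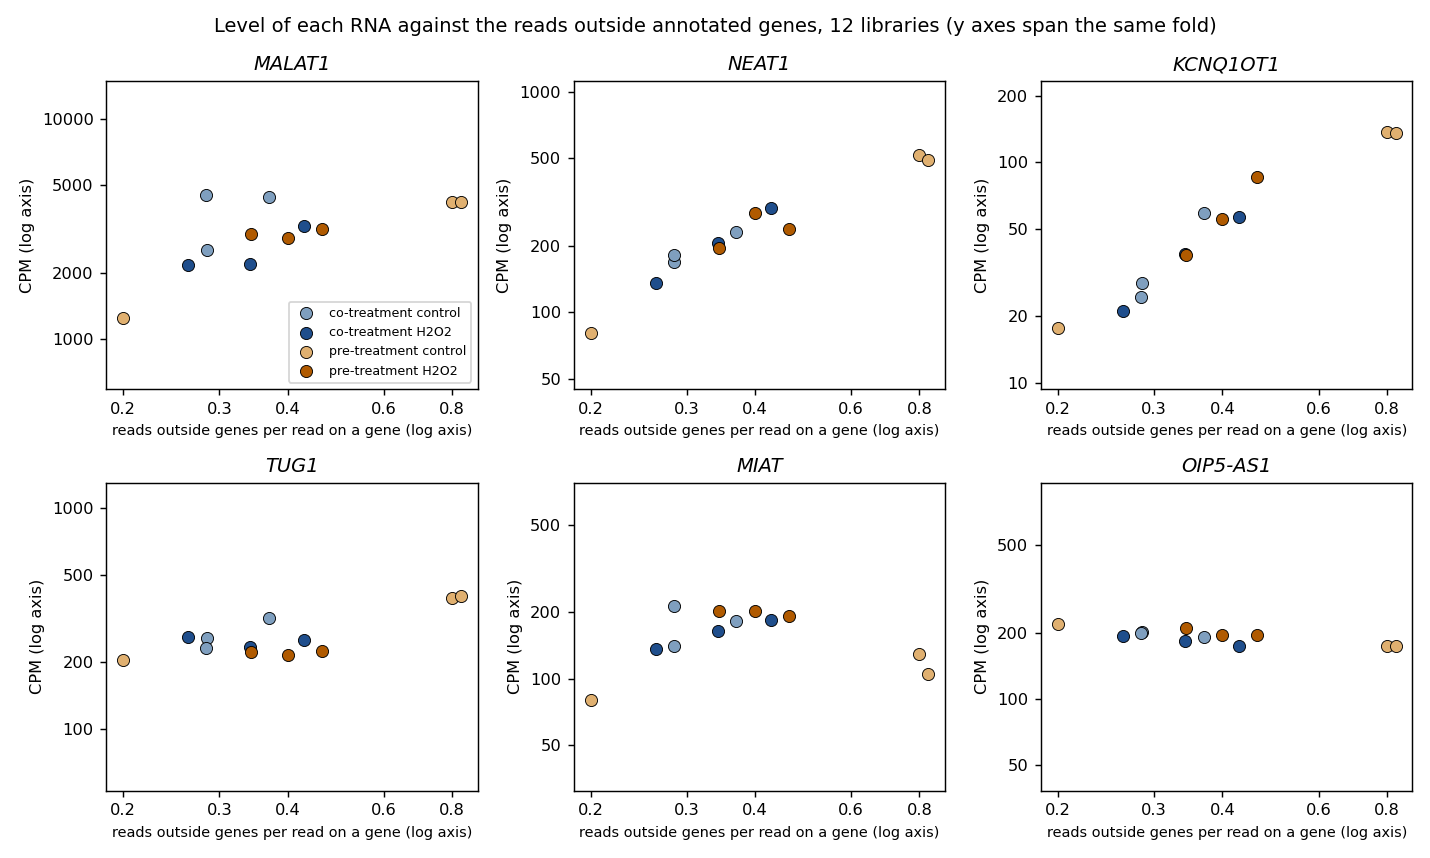
CPM of 6 RNAs against reads outside annotated genes per read on a gene, both on log axes, for 12 libraries coloured by group, with vertical axes that span the same fold. NEAT1 and KCNQ1OT1 rise along the axis from pre-treatment control 3 (0.200) to controls 1 and 2 (0.800 and 0.830), while OIP5-AS1 stays between 173 and 220 CPM.

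With the log2 of this measure as a covariate over both experiments, an alternative chosen after seeing the data, the pre-treatment log2 fold changes became 0.25 ± 0.13 for NEAT1, 0.26 ± 0.17 for KCNQ1OT1, 0.39 ± 0.19 for MALAT1 and -0.39 ± 0.12 for TUG1 over 6 libraries, none of them called. MIAT was called, at 1.03 ± 0.15 (edgeR FDR 0.00587), as were 3.79% of 24407 genes. Without control 3, this fit called no member, and 2 of 25668 genes. The measure was then 0.800 and 0.830 in the pre-treatment controls and 0.343 to 0.462 in the treated samples. Within that experiment it can hardly be separated from treatment, so the lack of calls decides nothing.

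The fibroblast marker COL3A1 also moved with pre-treatment. Of 5 markers of fibroblast-like cells, 1 of 4 tested over 6 libraries was called, as were 0.0242% of all genes. Over 5 libraries 2 of 5 were called (COL3A1 and DCN, both higher), where 26.1% of all genes were called, 13.2% higher. Over 6 and 5 libraries, LUM gave 0.52 and 0.96 and COL1A1 -0.60 and -1.06, neither called. Of the 5, 2 had more than 10 counts in every library, and the summed level of all 5 was 16.2 to 25.8 CPM in pre-treatment controls and 91.0 to 121 CPM in treated samples, against 25.2 to 43.6 and 30.4 to 34.3 CPM in co-treatment. Most of it was the collagen gene COL3A1, which rose over 6 libraries (log2 fold change 2.44 ± 0.24, edgeR FDR 0.0443), while COL1A1 stayed at or below 1.61 CPM. Its part in the members' differences was not tested. In bulk RNA, fewer cells of a type and less RNA per cell cannot be told apart.

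By likeness over the 12 libraries, among 6140 protein-coding genes of average log2 CPM above 5, the gene closest to MALAT1 was ATRX (Pearson's r 0.912), to NEAT1 AAK1 (0.962), to KCNQ1OT1 AUTS2 (0.979), to TUG1 PHF21A (0.987), to MIAT ANKRD10 (0.875) and to OIP5-AS1 TMED10 (0.965). The next were USP48 and BOD1L1 for MALAT1, ERCC6 and AUTS2 for NEAT1, PHC3 and UNC80 for KCNQ1OT1, MED14 and AGO1 for TUG1, RBM25 and LUC7L3 for MIAT, and SMARCE1 and LEPROTL1 for OIP5-AS1. These values describe 12 libraries of which 3 differ widely in composition.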

How the data were processed

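Total RNA of 12 SH-SY5Y samples was sequenced after ribosomal RNA depletion with a stranded kit. Per the labels, the authors checked reads with FastQC 0.11.8, trimmed them with cutadapt 2.10, mapped them to hg19 with HISAT2 2.1.0 and counted them per gene symbol with HTSeq 0.7.2. The deposited counts are whole and not normalized. The strand setting and annotation of the counting are not given in the sources used here. Tables of the authors' own comparisons (log fold change, average log CPM, p-value, FDR) were not used. The 5 closing entries for reads not counted on a gene, 40.0% to 59.9% of all reads in a file, stayed out of library sizes and tests.

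The main test was edgeR's quasi-likelihood test (edgeR 4.0.16 under R 4.3.3, TMM factors), and limma 3.58.1 and DESeq2 1.42.0 served as alternatives. Genes were kept where CPM reached that of 5 counts in the smallest library, in a number of libraries equal to the size of the smaller group, and called at an FDR (Benjamini-Hochberg over all genes tested) below 0.05. SE is the absolute log2 fold change divided by the square root of F. The fits were tested on simulated data. Positions are from GENCODE 44 mapped to GRCh37, and miR-7 is from RefSeq. Correlations were tested by permutation, with 100000 resamples over 10 libraries and exactly over 6.

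The members and gene lists were chosen with earlier results of these data known. Named were all 7 RNAs, genes of each list with the smallest FDR, overlapping or neighbouring genes, and the 3 protein-coding genes most alike to each RNA. NONO, the uncalled paraspeckle proteins set beside it, CELF3, CELF4, QKI and ZSWIM8 were chosen after their values were seen. So were the higher nuclear speckle genes given beside LUC7L3. Alternatives were other tests, scalings, filters and thresholds, a replicate block, 1 fit over both experiments, a left-out library and, added after seeing the data, the reads outside genes as a covariate. Nothing in the labels says that replicates came from separate cultures, so p-values measure the spread between these samples, which may be technical.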

Additional observations from a re-analysis of the deposited data

Results flagged for a closer look

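The log2 fold changes of NEAT1, MIAT and TUG1 differed between the 2 experiments by the interaction test over 11 libraries, without pre-treatment control 3. The difference of the pre-treatment and co-treatment log2 fold changes was -1.23 for NEAT1, 0.89 for MIAT and -0.76 for TUG1. The controls differed more than the treated samples. Mean CPM of treated samples in co-treatment and pre-treatment was 214 and 240 for NEAT1, 161 and 199 for MIAT and 249 and 221 for TUG1. In the controls, with pre-treatment controls 1 and 2 only, it was 195 and 503, 178 and 117, and 269 and 395 in that order. Over all 12 libraries none of these differences passed an FDR of 0.05 in edgeR's quasi-likelihood test, and with the reads outside genes as a covariate the 11-library values were 0.30 for NEAT1, 1.28 for MIAT and -0.55 for TUG1, none of them called. Without control 3 that covariate can hardly be separated from treatment in the pre-treatment experiment, so the missing calls decide nothing. The part of library composition in the differences was not tested further.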

How the results depend on the processing

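Of 576 recomputed log2 fold changes and differences of the 6 RNAs, 494 kept their direction and side of the threshold, 37 lost and 18 gained a call, and 27 changed sign. With the reads outside genes as a covariate, the values that changed sign were, for NEAT1, -0.09 (co-treatment), 0.25 and 0.22 (pre-treatment, 6 and 5 libraries), 0.34 and 0.30 (interaction, 12 and 11 libraries), for KCNQ1OT1 -0.17, 0.26, 1.17, 0.42 and 1.42 in the same order, for MALAT1 0.39 and 0.20 (pre-treatment, 6 and 5) and for OIP5-AS1 -0.06 (pre-treatment, 5). MALAT1 over 6 pre-treatment libraries was 0.11 with limma-voom and 0.09 with the replicate block, and its 11-library interaction was -0.01 with upper-quartile factors and -0.13 with library size only. With 1 library left out, co-treatment values ran from -0.19 to 0.37 for NEAT1, -0.33 to 0.56 for KCNQ1OT1 and -0.20 to 0.03 for TUG1, and those of MALAT1 from -0.45 to 0.14 (pre-treatment, 6) and -0.05 to 0.37 (interaction, 11). The cause was not tested.

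The number of members called in the co-treatment comparison was 1 without a filter. Over 6 pre-treatment libraries it was 1 with the exact test, DESeq2, no filter or the covariate, and 0 to 5 with 1 library left out, 5 only without control 3. Over 5 it was 2 with a fold threshold, 0 with the covariate, 4 in 1 fit over both experiments (without MALAT1), 6 with the replicate block, where OIP5-AS1 was gained (0.25, edgeR FDR 0.0449), and 3 to 5 with 1 more library left out. NEAT1, MIAT and TUG1 were called in all 5 of these, KCNQ1OT1 in 2 and MALAT1 in 1, and leaving out control 1 or 2 assumes that the lone control varies like the treated samples. In the interaction over 12 libraries it was 1 without a filter or with the covariate, and 0 to 3 with 1 library left out. Over 11 it was 0 with the replicate block or the covariate, and 0 to 4 with 1 library left out. Without control 3 the covariate can hardly be separated from pre-treatment, which limits the covariate counts here and below. Replicate numbers do not pair the samples (correlations of deviations -0.273 to 0.0264), and the block gave 181 called genes in co-treatment, 0 and 10755 in pre-treatment (6 and 5) and 3 and 832 in the interactions.

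Over all genes, 132 calls in co-treatment became 333 with the exact test, 342 with DESeq2, 535 without a filter, 80 with library size only, 53 with the covariate and 3 in 1 fit over both experiments. The 6 calls over 6 pre-treatment libraries became 271, 705, 319, 1, 924 and 68 in that order, 4 with RLE factors, and 0 with limma-voom or upper-quartile factors. The 6871 calls over 5 became 2952 with a fold threshold and 2 with the covariate, and the split of 3489 higher and 3382 lower became 2186 and 4088 with upper-quartile factors and 1384 and 4892 with library size only, which moved the median of all genes from 0.01 to -0.10 and -0.21. The 7 calls of the 12-library interaction became 106 with DESeq2, 272 without a filter, 33 with the covariate, 4 with library size only and 2 with limma-voom, and the 2058 of the 11-library one became 3483 with DESeq2, 3847 without a filter and 0 with the covariate.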

Other observations

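Other long noncoding RNAs moved in both directions. Of 19 tested over the 5 pre-treatment libraries, 5 were higher and 4 lower, beside 13.2% and 12.8% of all genes, and none was called in the co-treatment comparison or over 6 pre-treatment libraries. GAS5, a host gene of small nucleolar RNAs, averaged 86.5 CPM in controls 1 and 2, was at 202 CPM in control 3 and at 231 ± 23.6 CPM in the treated samples (log2 fold change over 5 libraries 1.45 ± 0.16, edgeR FDR 0.00121). H19 had the smallest co-treatment p of the list, with a log2 fold change of -0.91 ± 0.27 (edgeR FDR 0.265), at 885 ± 102 CPM in controls and 470.3 ± 216 CPM with H2O2. Of 11 subunits of the repressive complex PRC2, 2 were higher and 2 lower over 5 pre-treatment libraries, beside 13.2% and 12.8% of all genes. AEBP2 changed by -0.73 ± 0.13, JARID2 by -0.59 ± 0.11, RBBP7 by 0.58 ± 0.11 and EZH1 by 0.37 ± 0.11. In controls 1 and 2, control 3 and the treated samples, AEBP2 was at 26.3, 14.8 and 15.5 CPM and JARID2 at 110, 84.8 and 71.9 CPM. In the same order, RBBP7 was at 89.6, 141 and 131 CPM and EZH1 at 43.3, 42.3 and 54.7 CPM (means for groups). Control 3 was nearer the treated mean for all of these but EZH1. No subunit was called in the other comparisons of treated and control samples.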
